A study of Rattus norvegicus with 8 samples.

Results

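The baseline expression of the cultured fetal rat testis was described from the vehicle channel of 8 2-colour Agilent Whole Rat Genome arrays, that is 8 of the 16 channels of the series. On each array RNA from a testis exposed to mono-ethylhexyl phthalate (MEHP), at 1 µM on 2 arrays and at 10 µM on 6 arrays, was hybridized together with the vehicle RNA. The MEHP channel was not compared with the vehicle channel here. The vehicle RNA came from Sprague-Dawley fetal testes explanted between gestational days 14 and 15 and cultured whole for 72 h in medium M199 with DMSO, and RNA of 3 such testes from 3 litters was pooled. The 8 vehicle channels are therefore 8 hybridizations of 1 pool, their spread is technical, and no test between groups was possible. The spread between animals is not contained in these values.

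By the labels the vehicle carried Cy5 on all 8 arrays, but the study's methods describe an exchange of dyes between the arrays of a pair. The vehicle was read from Cy5 in the first hybridization of each of the 4 pairs, as the labels have it, and from Cy3 in the repeat. The log ratio of red to green was compared between arrays over the 4086 spots with either channel above the background threshold on all 8 arrays, and the arrays of a pair correlated negatively, with Pearson r across spots between −0.818 and −0.483. Between arrays that were both first hybridizations r was 0.0409 to 0.674, and between repeats 0.227 to 0.848. Between a first and a repeat array of different pairs it was −0.726 to −0.0344. Every correlation of a first with a repeat array was thus negative, the sign that an exchange of dyes gives. The opposite assignment, with the vehicle on Cy3 in the first arrays, would give the same signs. Which dye held the vehicle in the first arrays therefore rests on the labels. Spots of 1 array are not independent replicates. Dye and order of hybridization cannot be told apart, because the vehicle was read from Cy5 in every first hybridization.

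All probes that are not controls, 41012 in number, were ranked by their signal within each array, and the rank was expressed as a percentile, in which 100 is the brightest probe. The mean percentile over the 8 arrays was used. Of these probes 20.2% were well above background on at least 4 arrays and 67.3% on no array, by the flag described next. A percentile describes how bright a probe was among all probes. It does not compare the amounts of 2 transcripts, since probes differ in how well they bind. A signal was called well above background by the flag that the authors' software set, which asks for a margin of 13 times the background SD. A gene was called detected when its probe had that flag on at least 4 of the 8 arrays. For a gene with several probes the probe with the highest mean percentile was used, which gave 15502 genes with a symbol. Of these, 4640 were detected, which is a background of 29.9%. On all 8 arrays 12.9% of the genes were well above background, and on no array 55.6% were. For these last genes the arrays give only a bound by this flag. A less strict flag, positive and significant against the background, was set on at least 4 arrays for 53.9% of the genes and on no array for 2849 genes. Where it was not set the software put a surrogate in place of the signal, and percentiles of surrogates have no order.

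The fetal testis consists of cords, in which Sertoli cells enclose the germ cells, and of an interstitium with Leydig cells, mesenchyme, vessels and macrophages. Sertoli cells secrete anti-Müllerian hormone, which removes the female ducts, and inhibin. Fetal Leydig cells take up or make cholesterol, turn it into testosterone and secrete INSL3, which acts on the gubernaculum during testis descent. In RNA from whole testes, fewer cells of a type and less RNA per cell cannot be told apart.

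The promoters of Insl3, Amh and Inha are shown because the probes of these hormone genes were well above background in all 8 vehicle channels. Each is given as the 250 bases before the RefSeq start in assembly GRCr8, 5′ to 3′ on the gene's strand. Capitals mark an exact match to AAGGTCA, a half-site motif of the steroidogenic factor NR5A1, searched on both strands.
Insl3, chr16:18432939-18433188, plus strand: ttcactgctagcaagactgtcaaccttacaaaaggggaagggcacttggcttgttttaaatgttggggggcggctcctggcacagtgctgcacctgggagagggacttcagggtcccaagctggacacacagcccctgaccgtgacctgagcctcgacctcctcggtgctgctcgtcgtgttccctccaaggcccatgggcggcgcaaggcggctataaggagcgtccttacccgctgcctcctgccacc
Amh, chr7:9559868-9560117, minus strand: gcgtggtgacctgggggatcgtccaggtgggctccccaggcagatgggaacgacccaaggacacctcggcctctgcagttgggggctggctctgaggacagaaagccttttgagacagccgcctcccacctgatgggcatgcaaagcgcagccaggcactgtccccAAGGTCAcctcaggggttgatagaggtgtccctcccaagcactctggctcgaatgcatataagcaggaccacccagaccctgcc
Inha, chr9:84442859-84443108, plus strand: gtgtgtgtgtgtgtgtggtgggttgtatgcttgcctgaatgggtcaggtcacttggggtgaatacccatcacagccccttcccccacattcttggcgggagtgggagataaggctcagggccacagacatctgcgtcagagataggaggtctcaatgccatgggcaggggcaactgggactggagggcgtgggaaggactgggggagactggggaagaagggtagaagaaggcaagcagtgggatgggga
The window of Amh held the motif, starting 84 bases before the start, and the other 2 promoters held neither it nor TGACGTCA, a cAMP response element sequence. AAGGTCA stood in 3.99% of 33469 promoter windows of the same length, in 2 of 12 windows of Sertoli cell markers, those of Amh and Fgf9, and in 0 of 6 windows of Leydig cell markers. These matches are a description of the letters in the windows. Only these exact letters were searched, so other forms of the sites would be missed.

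Among the probes that could be given a symbol, those of protein synthesis genes were the brightest. Of the 100 brightest probes 44 had no symbol, and of the 500 brightest 230, and these are not described. Of the 25 genes with the highest mean percentile, 23 encoded cytosolic ribosomal proteins, and the other two were Tpt1, a translationally controlled growth protein, and Ubb, which encodes polyubiquitin. The mean percentile of these 25 genes lay between 99.89, for Rpl7a, and 99.998, for Rps6. The spot of Rps6 was marked as an outlier on 3 arrays, so its mean rests on 5, and Rpl14 also rests on 5. Among the 100 brightest genes 58 were ribosomal protein genes, among the 200 brightest 71, and among the 500 brightest 74. Of the 84 ribosomal protein genes measured, 81 were detected and 77 were well above background on every array that kept their spot, against 13.2% of all genes. Their median percentile was 99.7, beside 56.0 over all genes. Rpl37a, at 13.1 on average and well above background on no array, Rps12l4 and Rpl3l were the exceptions. Many ribosomal protein genes have near-identical copies, so a probe may have bound RNA of more than 1 of them, and symbols such as Rpl34l1 are uncertain.

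**Figure D1:**
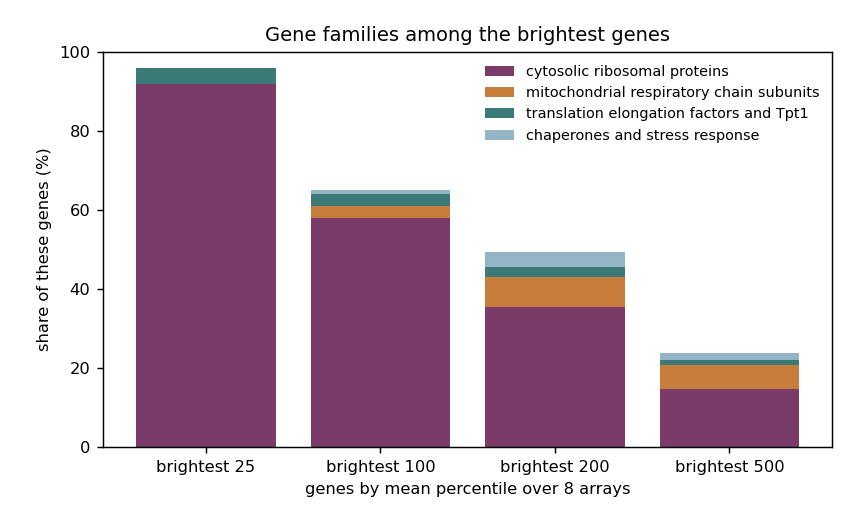
Share, in percent, of the brightest 25, 100, 200 and 500 genes by mean percentile over the 8 vehicle channels that belonged to 4 gene families. Ribosomal protein genes made up 23 of the brightest 25 genes and 74 of the brightest 500.

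Other genes of protein synthesis, energy supply and cell structure were also bright. All 6 members of the elongation factor list, which includes Tpt1, were detected, beside 29.9% of all genes, with a median percentile of 99.5. Of 72 respiratory chain subunit genes, 63 were detected, with a median of 97.0. Of 13 chaperone and stress genes 12 were detected, with a median of 99.01, and Hspa1b, an inducible heat shock protein gene, was well above background on no array. Hsp90ab1, a constitutive chaperone, ranged from 99.6 to 99.7. Of 13 cytoskeleton genes 12 were detected, and of 18 antioxidant and glutathione genes 16 were, among them Gstp1, a glutathione transferase, and Sod1, a superoxide dismutase, on all 8 arrays. Of 17 glycolysis genes 14 were detected, with Gapdh between 96.5 and 97.3 and Ldhb, a lactate dehydrogenase subunit, between 98.0 and 98.4.

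Genes of dividing cells were detected widely. Of 20 proliferation genes 17 were detected (85.0%), beside 29.9% of all genes, with a median percentile of 88.7. Cdk1, the kinase that drives entry into mitosis, had a lowest value of 97.4, a median of 97.8 and a highest of 98.2, and Pcna, the clamp of the replication fork, had 96.9, 97.6 and 98.0. Both were well above background on all 8 arrays. Mki67 was well above background on 2 arrays, and Mcm5 on none.

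The fetal growth factor system stood high among the probes. Igf2, an imprinted growth factor gene, lay between 99.5 and 99.7 on the 8 arrays. Igf1 lay between 96.5 and 97.7 by the brightest of its 4 probes. Its other probes had means of 77.8, 59.2 and 37.5 and were well above background on 4, 0 and 0 arrays. Of 10 genes of the insulin-like growth factor system 7 were detected (70.0%), beside 29.9% of all genes. Of 11 imprinted genes 8 were detected (72.7%), among them Cdkn1c, a cell cycle inhibitor, with a mean of 98.9. Igf1r, the receptor, was well above background on no array, and its positive and significant flag was set on 5.

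The 4 markers chosen for this tissue were each detected. Insl3 had a lowest percentile of 92.3, a median of 93.7 and a highest of 94.5 and was well above background on all 8 arrays. Its processed signal ran from 596 to 2798. Cyp17a1, the enzyme that turns progestins into androgens, had 85.8, 89.5 and 90.2 and was well above background on 6 arrays, all 4 with Cy5 and 2 of 4 with Cy3. Inha, the inhibin alpha subunit, had 95.5, 96.1 and 96.6, and Vim, the intermediate filament of mesenchymal and Sertoli cells, had 97.3, 97.8 and 98.1, both on all 8 arrays. The processed signal of Inha ran from 894 to 3968. With the vehicle read from Cy5 on every array, as the labels have it, the mean of Insl3 was 88.3 in place of 93.6 and that of Cyp17a1 78.4 in place of 88.5. If the dyes were exchanged as the methods state, that reading takes the MEHP channel on the repeat arrays. On the repeat array of testis 2 at 10 µM, 1.54% of the spots of the Cy5 channel were well above background.

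Most of the listed Leydig cell genes were detected. Of 9 markers 6 were detected (66.7%), beside 29.9% of all genes, and 2 of them were well above background on all 8 arrays. The median percentile of the list was 86.8, with array medians from 85.6 to 88.4. Scarb1, the receptor that takes up cholesterol from lipoproteins, was well above background on 6 arrays and ranged from 81.3 to 89.1. Star, the carrier of cholesterol into mitochondria, ranged from 83.6 to 87.4, and it was well above background on all 4 Cy5 arrays and on no Cy3 array. Its percentiles in the 2 dyes overlapped. Cyp11a1, which cleaves the side chain of cholesterol, had a lowest value of 35.4, a median of 72.9 and a highest of 82.2. It was well above background on 2 arrays, both with Cy5 and on the same slide. Lhcgr, the receptor of luteinizing hormone, and Nr5a1, the regulator of steroidogenic genes, were well above background on no array. Both probes of Lhcgr were below it on every array, and the positive and significant flag of the one used was also never set.

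**Figure D2:**
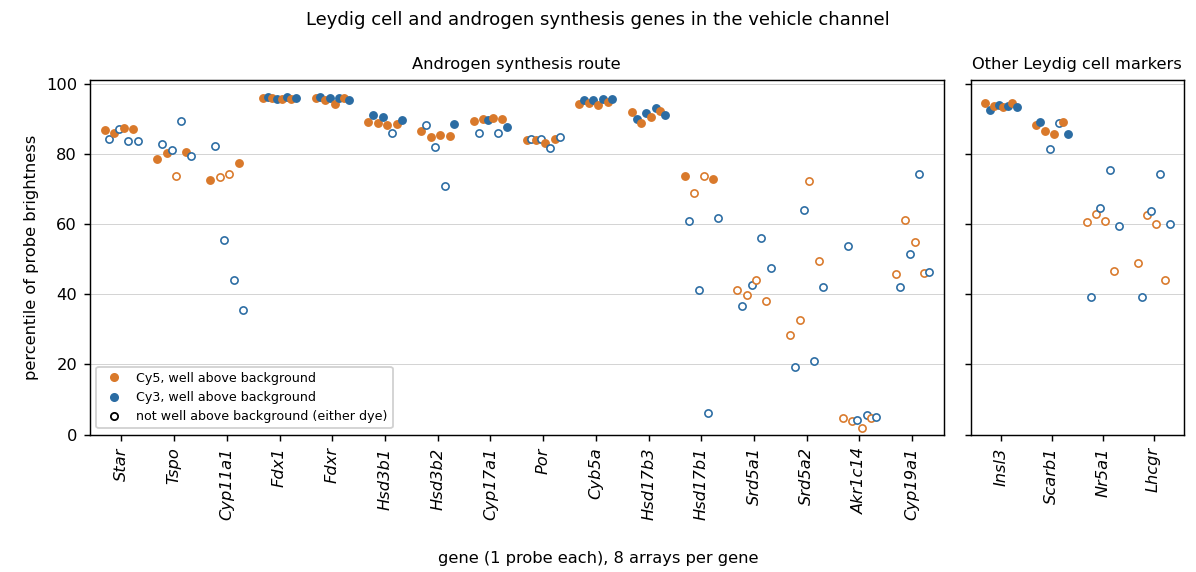
Percentile of probe brightness (0 to 100) on each of the 8 arrays for the genes of the androgen synthesis route, from cholesterol transport on the left, and for the other Leydig cell markers. Filled points are well above background and open points are not, in orange for Cy5 and blue for Cy3. Insl3 lay between 92.3 and 94.5, and Star was well above background in Cy5 alone.

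Genes of androgen synthesis and conversion were detected in part. Of 16 genes 9 were detected (56.25%), beside 29.9% of all genes, with a median percentile of 83.9. The list includes electron carriers and enzymes that act after testosterone, so this share does not count steps of the route to testosterone. Cyp11a1 and Hsd17b1 were well above background on 2 arrays each, and Tspo on 3. The electron carriers of the steroidogenic enzymes varied little in percentile between arrays. Their processed signals varied more, from 928 to 4005 for Fdx1 and from 876 to 3175 for Fdxr. Fdx1, which serves the mitochondrial enzymes, ranged from 95.5 to 96.1, and Fdxr, its reductase, from 94.1 to 96.2. Cyb5a, the cytochrome that favours the lyase reaction of CYP17A1, ranged from 93.8 to 95.7, and all of these were well above background on all 8 arrays. Por, the reductase of the microsomal enzymes, ranged from 81.8 to 84.8 and was well above background on 4. Hsd3b1, which oxidizes pregnenolone to progesterone, ranged from 86.0 to 91.1, on 7 arrays, and Hsd3b2 from 70.7 to 88.6, on 5. These paralogs are alike in sequence, so their signals may not be separate. Hsd17b3, the testicular enzyme that makes testosterone from androstenedione, ranged from 88.8 to 92.9 and was well above background on all 8 arrays. Srd5a1 and Srd5a2, the reductases that make dihydrotestosterone, Akr1c14 and Cyp19a1, the aromatase, were well above background on no array. The positive and significant flag was set on 3 arrays for Srd5a2 and on none for Srd5a1, Akr1c14 and Cyp19a1. In the medium of control explants the study measured more dihydrotestosterone than testosterone, and it described the reductase as highly active. The signals of these probes give only a bound.

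Cholesterol synthesis was detected in part. Of 20 genes 12 were detected (60.0%), beside 29.9% of all genes, with a median percentile of 83.7. Hmgcs1, which makes the precursor of mevalonate, ranged from 97.0 to 97.9, Fdps, which makes farnesyl diphosphate, from 97.6 to 98.5, and Msmo1, a sterol oxidase, from 97.1 to 98.3, and each was well above background on all 8 arrays. Nsdhl and Hsd17b7 were well above background on no array. Of 10 apolipoproteins and lipid carriers 5 were detected, and Apoe, an apolipoprotein, ranged from 98.8 to 99.1 and was well above background on all 8 arrays.

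Of 17 Sertoli cell markers 10 were detected (58.8%), beside 29.9% of all genes, 5 of them on all 8 arrays, and the median percentile of the list was 84.5. The 5 include Inha, which per the study is expressed in fetal Leydig cells as well. Aard ranged from 98.7 to 98.9. Amh ranged from 97.2 to 98.2, and Sox9, the regulator of Sertoli cell fate, from 93.6 to 96.0. Inhbb, the inhibin beta B subunit, ranged from 92.9 to 96.0. Kitlg, the ligand of the germ cell receptor KIT, was well above background on 7 arrays, and Dhh, the hedgehog signal to the interstitium, on 6. These are the values of the brightest probes. The other probes of Kitlg and Dhh, with means of 49.7 and 68.4, were well above background on no array. Those of Inhbb were so on 5 arrays and on no array. Gata4, a regulator of gonadal genes, was well above background on the 4 Cy5 arrays. Fshr, the receptor of follicle-stimulating hormone, Sox8, Fgf9, Erbb4 and Cldn11, a component of the later blood-testis barrier, were well above background on no array. The median over the list was 71.4 on the repeat array of testis 2 at 10 µM and between 84.4 and 87.0 on the others, and without that array the median of the list was 86.0.

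Of 12 germ cell markers measured 2 were detected (16.7%), beside 29.9% of all genes, 9 were well above background on no array, and the median percentile was 51.9. Piwil2 and Mael, genes of transposon silencing, were well above background on the 4 Cy5 arrays and on no Cy3 array. Piwil2 had a lowest value of 25.4, a median of 80.7 and a highest of 85.0. Its other probe, with a mean of 51.6, was well above background on no array. Ddx4, the germ cell helicase, was well above background on 2 arrays, and Pou5f1, the pluripotency factor of early germ cells, on none. With the less strict flag 6 of the 12 markers (50.0%) passed on at least 4 arrays, beside 53.9% of all genes. No probe was named for Dazl, Dnd1 and Dppa5. Of 9 measured genes of meiosis and sperm formation none was detected, and Prm1, a protamine, was well above background on 1 array.

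**Figure D3:**
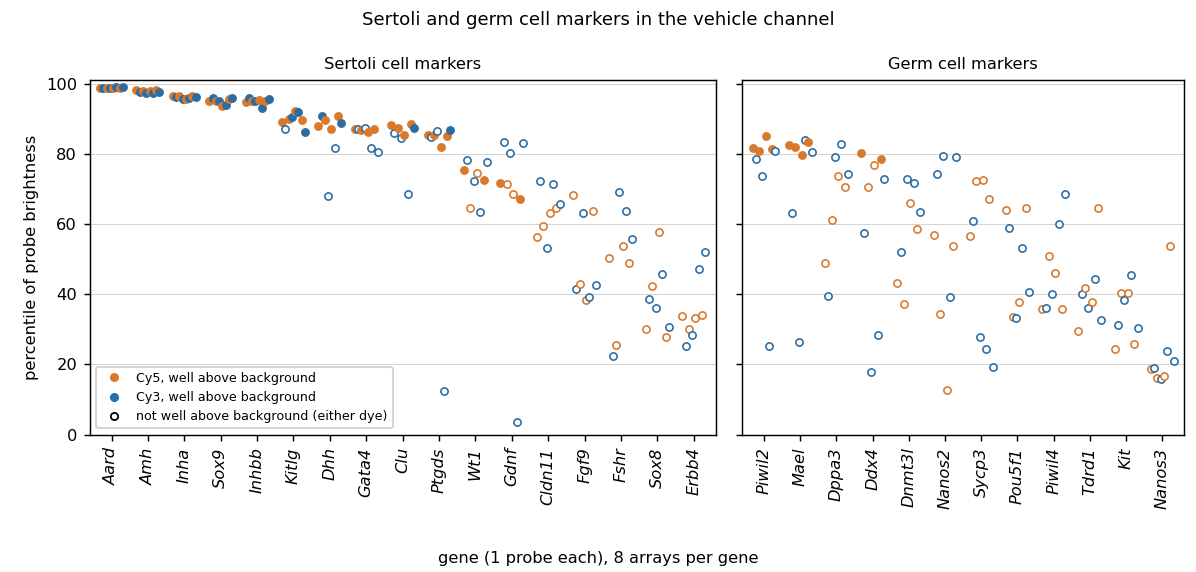
Percentile of probe brightness (0 to 100) on each of the 8 arrays for Sertoli and germ cell markers, ordered by mean. Filled points are well above background and open points are not, in orange for Cy5 and blue for Cy3. The 5 Sertoli cell markers on the left were well above background on all 8 arrays and no germ cell marker was. The 5 include Inha, which per the study fetal Leydig cells express as well.

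Mesenchymal genes were widely detected. Of 12 interstitial mesenchyme markers 10 were detected (83.3%), beside 29.9% of all genes, 7 of them on all 8 arrays, with a median percentile of 93.8. Col3a1 and Col1a1, fibrillar collagens, had medians of 99.3 and 99.3, and Col1a2 had 98.9. Pdgfra and Pdgfrb, receptors of platelet-derived growth factor, had medians of 95.7 and 95.4, and Dcn, a matrix proteoglycan, had 92.3. Nr2f2, Tcf21 and Gli1, transcription factors of interstitial progenitors, were well above background on 4, 5 and 5 arrays. Ptch1, the receptor of hedgehog signals, and Lum were well above background on no array. Of 17 matrix genes 12 were detected, all 12 on all 8 arrays. Of 7 measured peritubular and smooth muscle markers 3 were detected (42.9%), beside 29.9% of all genes. They were Myl9, a myosin light chain, between 99.2 and 99.4, Des, an intermediate filament, between 93.8 and 95.3, and Tagln on 4 arrays.

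Macrophage, endothelial and blood cell genes were seen in part. Of 11 macrophage and leukocyte markers 4 were detected (36.4%), near the 29.9% of all genes. Lyz2 and Mrc1 counted among them by the 4 Cy5 arrays alone. Aif1, a macrophage protein, was well above background on 7 arrays and ranged from 84.5 to 93.9, and C1qb, a complement subunit, on 5. Csf1r and Ptprc, the defining receptor and the common leukocyte antigen, were well above background on no array. Of 10 endothelial markers 2 were detected (20.0%), beside 29.9% of all genes. They were Kdr, the receptor of vascular endothelial growth factor, between 89.97 and 93.9, and Egfl7 between 84.1 and 91.9. Each was well above background on 7 arrays, while Pecam1, Cdh5 and Tek were so on none. Of 5 erythroid markers measured none was detected, with Hbb, an adult globin, on no array and Alas2 on 2. Hba-a3, an alpha globin gene that was not on the list and was chosen after its values were seen, was well above background on 5 arrays.

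**Figure D4:**
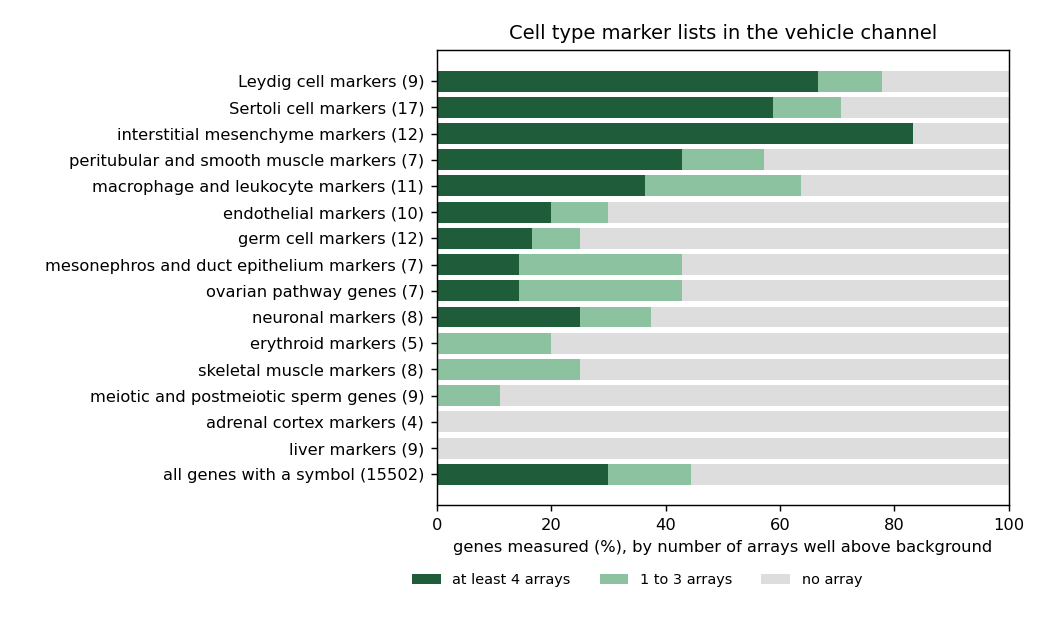
Share, in percent, of the measured genes of each cell type marker list that were well above background on at least 4, on 1 to 3 and on none of the 8 arrays, with the number measured in brackets and all 15502 genes at the bottom. Interstitial mesenchyme (10 of 12), Leydig (6 of 9) and Sertoli markers (10 of 17) were above the 29.9% of all genes. Peritubular (3 of 7), macrophage (4 of 11) and endothelial markers (2 of 10) lay near it, where single genes decide the side. Germ cell (2 of 12) and erythroid markers (0 of 5) were below it, as were the small lists of other tissues.

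Markers of other tissues were mostly below the threshold, as were most genes, since 29.9% of all genes were detected. None of 9 liver, 4 adrenal cortex and 8 skeletal muscle genes was detected, and all 9 liver genes and all 4 adrenal genes were well above background on no array. Of 7 mesonephros and duct genes 1 was detected, Emx2, a homeobox gene of the urogenital ridge, which was on all 8 arrays and ranged from 94.6 to 96.6. Of 7 ovarian pathway genes 1 was detected, Wnt4, a signal that gonads of both sexes make early, which ranged from 88.2 to 90.8 on 6 arrays, and Foxl2, the defining ovarian factor, was on none. Of 8 neuronal genes 2 were detected, Nefm, a neurofilament, on 6 arrays and Tubb3 on 4. Stmn2 was well above background on 1 array. With the less strict flag 50.0% of the skeletal muscle, 50.0% of the neuronal and 57.1% of the ovarian genes passed on at least 4 arrays. The share of all genes was 53.9%. Of the mesonephros and duct genes 42.9% passed, of the liver genes 22.2% and of the adrenal genes 0%.

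Receptors were mostly below the threshold. Of 19 hormone and nuclear receptors 2 were detected (10.5%), beside 29.9% of all genes. They were Nr3c1, the glucocorticoid receptor, and Nr2f2, each on the 4 Cy5 arrays by the probe used. Another probe of Nr3c1 was well above background on 6 arrays. Esr1, an estrogen receptor, was well above background on no array, and its positive and significant flag was never set. Of 10 measured regulators of testis determination 2 were detected (20.0%), Sox9 and Gata4. Of 10 genes of the inhibin, activin and AMH system 4 were detected (40.0%), the ligand subunits Inha, Inhbb and Inhba and Amh itself, and no receptor was. Amhr2, the AMH receptor, was well above background on 2 arrays. Of 10 retinoid genes 6 were detected (60.0%), among them Crabp2, a retinoic acid binding protein, on all 8 arrays, and Cyp26b1, which degrades retinoic acid, on 7. Of 10 genes of the hypoxia response 3 were detected (30.0%), the share of all genes being 29.9%, with a median percentile of 72.2.

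The dye, the slide and the array moved with these counts. The share of probes well above background was between 20.8% and 31.3% in the 4 Cy5 channels and between 9.02% and 14.98% in the 4 Cy3 channels, with no overlap. Slide 2 held the arrays at 1 µM and those of testis 3 at 10 µM, and it was higher within each dye. In Cy5 its shares were 29.4% and 31.3%, against 20.8% and 22.3% on slide 1. In Cy3 they were 11.3% and 14.98%, against 9.39% and 9.02%. Slide and scan cannot be told apart. On all 4 Cy5 arrays and no Cy3 array 2148 probes were well above background, and 1 probe the other way. By the probes used, Star, Por, Gata4, Inhba, Piwil2, Mael, Nr3c1, Nr2f2, Tagln and Tubb3 were well above background on exactly the 4 Cy5 arrays. Cyp11a1, Ddx4, Amhr2, Alas2 and Mki67 were so on only the 2 Cy5 arrays of slide 2. Spearman correlations across probes between the 28 pairs of vehicle channels were 0.608 to 0.881, with a median of 0.793, and these share 1 RNA pool and probe set. The repeat array of testis 2 at 10 µM stood apart, with correlations of 0.608 to 0.779 to the others and a 99th percentile of signal 25.7 times its median, against 66.7 to 343 times elsewhere. Without it the correlations were 0.770 to 0.881.

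**Figure D5:**
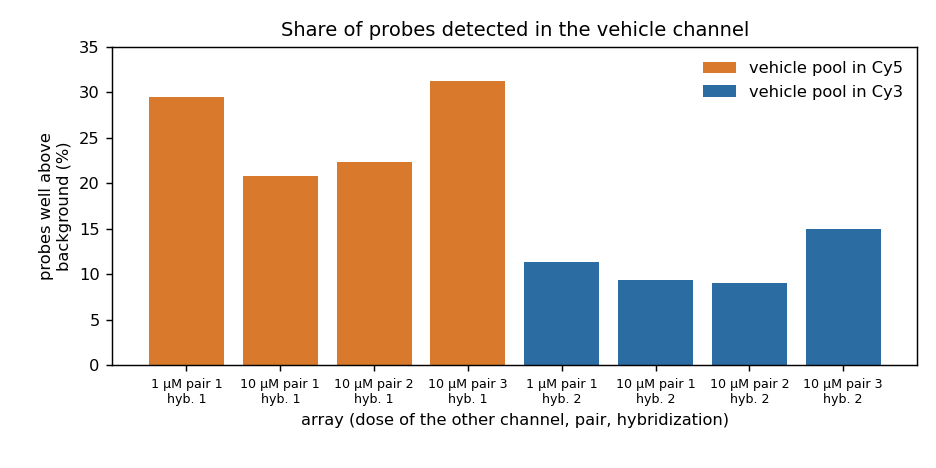
Share of probes, in percent, well above background in the vehicle channel of each of the 8 arrays, in orange for Cy5 and blue for Cy3. The 4 Cy5 channels lay between 20.8% and 31.3% and the 4 Cy3 channels between 9.02% and 14.98%.

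Probes of 1 gene often disagreed. Among 3612 genes with more than 1 probe, the highest and lowest probe differed by a median of 23.3 percentile points. Of 1782 such genes with a probe detected on at least 4 arrays, 884 (49.6%) had another probe that was well above background on no array. Of the 4 probes of Sox9, one was well above background on all 8 arrays, one on 4 and the other two on none. Nr5a1, Fshr and Cyp11a1 had 1 probe each, and a signal below the threshold is a bound for that probe.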

How the data were processed

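Per the labels, total RNA was labelled in 2 colours and hybridized on Agilent Whole Rat Genome arrays. Spots were quantified by the authors in Agilent Feature Extraction 9.1, per the file headers, and they deposited, for each spot, processed and mean signals as intensity values of each dye, background intensity, the log10 ratio of red over green, and outlier, background and surrogate flags. Background subtraction and dye normalization had been done in the processed signals. The authors also deposited lists of fold changes and p-values of their own comparisons, which were not used.

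Control and outlier spots were left out, 12 to 30 outlier spots per array. Spots of a probe were averaged, ranked within each array and the percentiles averaged. Processed signals at or near background are replaced by surrogate values, which covered 45.5% to 72.6% of the probes of a channel. Of 41012 probes, 10735 were named by accession, 5571 by symbol and 3729 by synonym from RefSeq genes of assembly GRCr8, used for names only, and 20977 (51.1%) had no symbol. Members and gene lists were chosen with earlier results of these data known. The genes named are the 4 markers, the members of 34 lists and the 25 brightest genes. Ribosomal protein and respiratory chain genes were taken by the start of their symbols. No probe was named here for 20 listed genes, and some listed genes are counted but not reported here by name.

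Python 3.11.15, pandas 2.3.3 and numpy 2.4.6 were used, matplotlib 3.10.9 for figures, and limma 3.58.1 and data.table (version 1.17.8) in R 4.3.3 for normexp background correction with an offset of 50. The ranking was tested on simulated data. No saturated spots were found in the vehicle channels. Arrays carry no counts, so the number of arrays limits the precision. The alternatives were the dye of the vehicle, each dye or slide alone, each pair of arrays left out, other background corrections, outlier spots kept, medians, other detection flags and limits, and other rules for probes of a gene.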

Additional observations from a re-analysis of the deposited data

Results flagged for a closer look

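The highest or lowest of the 8 vehicle channels lay far from the others, by the gap to its neighbour relative to the range, in 35 of 154 measures examined. Chance flags about 1 in 20 for independent, normally spread values. These measures overlap, since list medians and list members were both examined, and they mix both dyes and both slides. That share is therefore no benchmark for them. Of the 35, 18 were on the repeat array of testis 2 at 10 µM. That array had the lowest median Spearman correlation with the others, 0.707, and the lowest list medians for Sertoli cell markers (71.4), for the inhibin, activin and AMH system (53.8) and for peritubular markers (24.96). On it stood also the lowest percentiles of Ptgds (12.4), Lyz2 (20.3), Piwil2 (25.4), Gdnf (3.62), Clu (68.7), Mrc1 (13.0), Aif1 (84.5), C1qb (79.1), Wnt4 (88.2), Actg2 (24.96), Hsd3b2 (70.7), Amhr2 (12.2), Inhba (26.4) and Inhbb (92.9). On the repeat array of testis 1 at 10 µM the lowest were the retinoid list median (70.8), Mael (26.5), Dhh (67.9), Kdr (89.97) and Scarb1 (81.3). On the first array of testis 2 at 10 µM they were Egfl7 (84.1), Fdxr (94.1), Atf4 (98.9), Rplp1 (99.98) and Rps6 (99.99), and the highest value of Rpl14 (99.99) stood there too. The remaining ones were the apolipoprotein list median (63.2) and the highest value of Akr1c14 (53.7) on the repeat array at 1 µM, Nsdhl (31.0) on the first array of testis 1 at 10 µM, Gli1 (82.3) on the first array of testis 3 at 10 µM, and Nr2f2 (75.1) and the highest value of Rpl37a (28.6) on its repeat array. Several of these values are in the range of surrogate signals, where percentiles have no order.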

How the results depend on the processing

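Of 94 recomputed values of the 6 main results, 83 stayed within the replicate spread or, for counts, within 1.5 times, and 11 moved. Of 1245 recomputed values of 77 other results, on single genes and lists, 174 moved, among them 25 of 77 with the vehicle on Cy5 throughout and 14 of 31 with all probes of a gene averaged. If the dyes were exchanged as the methods state, Cy5 throughout takes the MEHP channel on the repeat arrays. The number of probes well above background in the vehicle channel on at least 4 arrays, 8272, was 4801 on the Cy3 arrays alone, 4773 with a limit of 6 arrays and 16909 with the positive and significant flag, with which 11284 probes in place of 27595 were so on no array. The median correlation of 0.793 was 0.636 with mean signals minus median local background and 0.636 with normexp, which carry no surrogate values. The Leydig cell median of 86.8 was 78.4 with the vehicle on Cy5 throughout, 88.0 on slide 2 alone and 79.5 when ranked among genes with a symbol. The Sertoli cell median of 84.5 was 69.6 with all probes of a gene averaged and 76.9 when ranked among genes with a symbol. The germ cell median of 51.9 ranged from 42.6 to 57.1, but it lies where surrogate signals are common, so this range says nothing about its stability. The number of germ cell markers detected, 2, was 0 with a limit of 6 arrays or on Cy3 alone and 6 with the less strict flag. Leaving out each pair of arrays gave 8229 to 9154 probes, 27618 to 28760 probes well above background on no array, correlations of 0.784 to 0.800 and Leydig, Sertoli and germ cell medians of 86.2 to 87.7, 83.4 to 86.0 and 50.0 to 52.9. The alternative without the repeat array of testis 2 at 10 µM was chosen after seeing the data and moved none of the 6. No paired analysis was possible because the result comes from no test. Brightness limits the rest: 55.6% of the genes were below the threshold on every array.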
